A study of Mus musculus with 3 samples.

Results

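The cytosines described here were called as methylated in germinal vesicle (GV) oocytes and again in 1-cell embryos of the mouse, but not in the metaphase II (MII) oocytes between them. They were chosen from the deposited lists of 5-methylcytosine (m5C) sites, by position alone, as present in the GV oocyte and 1-cell embryo lists and absent from the MII oocyte list. There were 333 such sites in 310 genes, of 40298 distinct sites in 8353 genes over all 3 lists. They made up 5.14% (95% Wilson interval 4.63 to 5.71) of the 6478 sites shared by the GV oocyte and the embryo, 2.09% of the 15910 sites of the GV oocyte list and 1.33% of the 24996 sites of the embryo list. The other 6145 shared sites were called at every stage and serve as the comparison set. Which sites are members, and their levels and coverage in the GV oocyte and the embryo, follow from this rule and are given as a description.

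The study asked how m5C of mRNA changes as oocytes mature and are fertilized, using RNA bisulfite sequencing, in which unmethylated C is read as T and m5C stays C. Per the labels, all samples came from wild-type C57BL/6J mice aged 7 to 8 weeks. GV oocytes, fully grown and before meiotic resumption, were taken from ovaries 48 h after an injection of pregnant mare serum gonadotrophin (PMSG, 10 IU). MII oocytes, mature and ready for fertilization, were taken 12 h after 5 IU of human chorionic gonadotrophin (hCG) in females given 10 IU of PMSG. The 1-cell embryos came from females mated with C57BL/6J males, 24 h after 5 IU of hCG that followed 5 IU of PMSG, and about 200 embryos went into the library. The methods of the study give a wider age range for oocyte donors and a higher hCG dose for MII oocytes, and describe the embryo donors as induced in the same way, which the label of the embryo sample does not. The labels also name polyadenylated RNA where the methods name RNA depleted of ribosomal RNA. The deposited embryo list is not the one in the supplement of the study, so the 333 sites and their embryo levels hold for the deposited list. There was 1 library per stage, so no value has a replicate check, and stage and library cannot be told apart. The listed sites held 4475058 reads for the GV oocyte, 5285011 for the MII oocyte and 2616279 for the embryo. Of 10 oocyte marker genes, 6, 8 and 10 held a listed site in these 3 libraries. Of 8 cumulus or granulosa cell markers, 0, 2 and 1 held one, with at most 96 reads, and of 6 sperm markers Prm2 held one in both oocyte lists.

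In RNA, m5C is placed by methyltransferases of the NSUN family. NSUN2 acts on C followed by a G-rich stretch at the base of a hairpin (Type I), and NSUN6 acts on the first C of CUCNA in a loop (Type II). Growing oocytes make and store large amounts of mRNA, transcription stops before meiosis resumes, and the stored maternal mRNA is read and degraded in turn until the embryonic genome is switched on. A listed site had at least 20 reads, a level of at least 10%, at least 5 unconverted reads and a p-value against the background of its gene that passed the limit of the study. The lists hold called sites alone, so they give neither the level nor the coverage of the 333 sites in the MII oocyte.

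The sequences around the sites carry the class of each site, and those on which the following paragraphs turn are shown as the 25 nt of the GRCm38 genome centred on the site, 5′ to 3′ on the strand of the gene. Capitals mark the site C and the 4 bases after it. The first 4 had the highest levels in the GV oocyte, namely Taf4 (chr2:179975798-179975822, minus strand), Zfp316 (chr5:143253501-143253525, minus), Ksr2 (chr5:117766844-117766868, plus) and Rasa4 (chr5:136100996-136101020, plus). Rpn2 (chr2:157299606-157299630, plus), Csnk1g2 (chr10:80634403-80634427, plus) and Hist1h1c (chr13:23739113-23739137, plus) were among the sites with the largest difference between GV oocyte and embryo. Rcor1 (chr12:111039553-111039577, plus) and Apba1 (chr19:23893721-23893745, plus) lay next to an MII-listed C. Eef2 (chr10:81179421-81179445, plus), Rps6 (chr4:86856290-86856314, minus) and the Rpph1 sites (chr14:50807595-50807619, chr14:50807629-50807653 and chr14:50807660-50807684, minus) were among the most deeply read. The last 3 are the Type II sites with the deepest reads in the less covered of both libraries, Zwint (chr10:72657267-72657291, plus), Rpa2 (chr4:132778203-132778227, plus) and Gtse1 (chr15:85868890-85868914, plus), and all of them read CTCCA.
Taf4: cgccgcgcagaaCGGGGccgctcct
Zfp316: tctctcagcgatCGGTGctcgtgac
Ksr2: gcagagaattagCAGGGttagccag
Rasa4: caggaggtgaagCTGGGcactcagg
Rpn2: gtcggcggctacCAGGGctaccgtc
Csnk1g2: actcggatctcaCGGCAgagtcacc
Hist1h1c: agcaagggcatcCTGGTgcaaacca
Rcor1: gcgcctcgcgagCCGGGgtccccgt
Apba1: cgtgccccgactCCGGGagggggac
Eef2: ctgccagctcatCCTGGaccccatc
Rps6: tttcccatgaagCAAGGtgttctga
Rpph1, first site: gggcagactgggCAGGAgaagcccc
Rpph1, middle site: gaggtgagttccCAGAGagcagggc
Rpph1, last site: cgcggccctaacCGGGCtctccccg
Zwint: aaccagagctacCTCCAgctgctgt
Rpa2: agagcgactgttCTCCAaggcttcg
Gtse1: aacaaccccagaCTCCAgagcaaag

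Most of the 333 sites had a GV oocyte level just above the list minimum. The median level was 12% (quartiles 10.8 and 14.9, range 10 to 90.2) in the GV oocyte and 31% (quartiles 20.3 and 47.4, range 10.2 to 100) in the embryo. In the GV oocyte 164 sites (49.2%) were under 12%, 252 (75.7%) were under 15%, and 36 (10.8%) were at 20% or more. The 95% Wilson interval of the GV oocyte level included 10% at 268 sites (80.5%), against 1254 (20.4%) of the 6145 sites called at every stage. The latter had median levels of 21.6%, 28.1% and 45.5% in GV oocyte, MII oocyte and embryo.

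The sites were also read less deeply than those called throughout. A median of 134 reads (quartiles 59 and 284) covered them in the GV oocyte, and 41 reads (quartiles 28 and 70) in the embryo. Sites called at every stage had medians of 279, 242 and 66 reads in the 3 libraries. Coverage was under 50 reads at 60 members (18%) in the GV oocyte and at 203 (61%) in the embryo, against 2.82% and 37.0% of the sites called at every stage. At 19 members the GV oocyte held exactly 5 unconverted reads, the fewest a list allows.

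Just inside the rule were sites at the 10% limit of the GV oocyte, of which 6 stood at exactly 10%, among them Rpl13 with 161 unconverted of 1610 reads. Just outside it were sites kept in the MII list by a narrow margin. Haus3, a subunit of the augmin complex of the spindle, was at 12.0% of 945 GV oocyte reads, 10% of 260 MII oocyte reads and 12.2% of 139 embryo reads. Rnf185, an E3 ubiquitin ligase of the endoplasmic reticulum, was at 11.7% of 511, 10% of 380 and 19.3% of 109 reads in the same order. Fbxo46, an F-box protein, was at 10% of 370, 10.0% of 299 and 12.2% of 74 reads. These 3 sites had GV oocyte levels like those of the members and were listed at every stage. All 3 were Type II sites, a class that held 5.42% of the members at a known base.

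**Figure D1:**
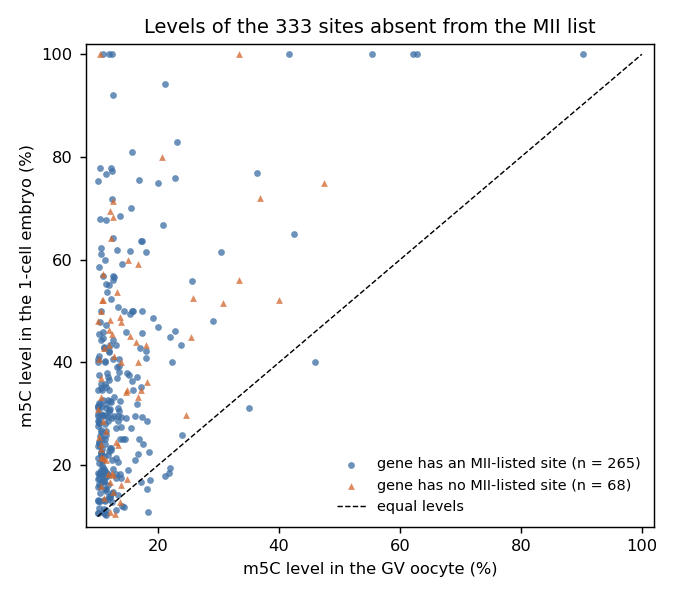
The m5C level of each of the 333 sites in the GV oocyte (x axis, %) and in the 1-cell embryo (y axis, %), with triangles for the 68 sites whose gene had no site in the MII list. Most points crowd at the left edge, with a median of 12% in the GV oocyte, while the embryo levels spread from 10.2% to 100%.

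The share of shared sites that was absent from the MII list went down with the GV oocyte level. It was 21.1% (17.7 to 25) of the 473 shared sites at 10 to 11% in the GV oocyte, 11.5% of the 392 at 12 to 13%, 3.73% of the 1208 at 15 to 20% and 0.483% (0.188 to 1.23) of the 829 at 50% or more. It went down with the GV oocyte coverage too, from 25.8% (20.6 to 31.7) of 233 sites at 20 to 49 reads to 2.06% (1.55 to 2.74) of 2231 sites at 400 reads or more. Among shared sites with at least 200 reads in the GV oocyte, 15.3% of the 313 at 10 to 11% were absent, against 1 of the 805 at 20 to 30%. None of the 732 such sites at 30 to 50% and none of the 503 at 50% or more was absent, which allows shares of up to 0.522% and 0.758% (upper Wilson bounds). Embryo coverage and level showed the same order, with 9.76% of the sites at 20 to 29 embryo reads and 1.46% of those at 200 reads or more absent from the MII list, and 10.7% of those at 10 to 20% in the embryo against 2% of those at 75% or more. The levels and coverage of the GV oocyte and of the embryo are measures that the rule used, so these shares describe how the members lie among the shared sites.

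**Figure D2:**
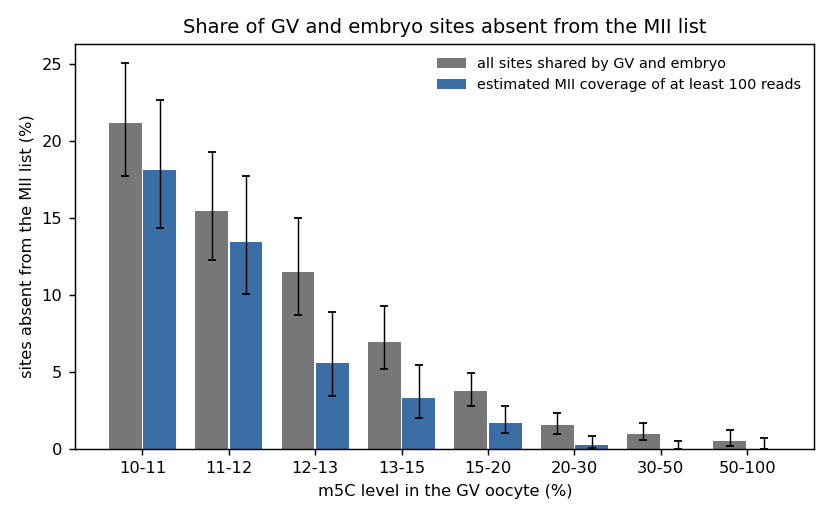
Share of the GV oocyte and embryo sites that were absent from the MII list (y axis, %) by their m5C level in the GV oocyte (x axis, %), for all 6478 shared sites in grey and for those with an estimated MII coverage of at least 100 reads in blue, with bars for 95% Wilson intervals. The share was 21.1% at 10 to 11% and 0.483% at 50% or more for all shared sites, and 18.1% and 0% with the estimated coverage of at least 100 reads.

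The embryo level was above the GV oocyte level at 313 of the 333 sites (94.0%), with a median difference of 18.7 percentage points (quartiles 7.73 and 31.5). At sites called at every stage the embryo was higher at 90.2%, with a median difference of 19.3 points. Among the 1644 of these that were under 15% in the GV oocyte, the embryo was higher at 95.7%. Most members had GV oocyte levels just above the list minimum, which left little room for a lower embryo level in the lists. A listed site also needed at least 5 unconverted reads, which set a higher minimum level at sites with under 50 reads. Coverage was that low at 203 members in the embryo and at 60 in the GV oocyte. How far these limits account for the differences was not tested. Fisher's exact test of the reads of both libraries (two-sided, Benjamini-Hochberg over all 6478 shared sites, adjusted p under 0.05) called 185 members (55.6%) higher and 0 lower in the embryo. Over all shared sites 66.1% were called higher and 1.05% lower, and this contrast shares its values with the rule. None of the 20 members that were lower in the embryo had an unadjusted p under 0.05. The test compares 2 libraries, not the stages. With at least 50 reads in both libraries the median difference was 8.59 points over 129 members and 16.4 points over 3855 sites called at every stage. With at least 100 reads it was 6.90 points over 46 members and 15 points over 2081 sites. When reads were divided by 5, to allow for reads that are copies of one molecule, 27 members (8.11%) and 21.1% of all shared sites were called higher, while no member and 0.0772% of all shared sites were called lower.

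The largest differences among the members with at least 50 reads in both libraries were in genes of several functions. Rpn2 encodes a subunit of the oligosaccharyltransferase that glycosylates proteins in the endoplasmic reticulum, and its CDS site in exon 8 (ENSMUSG00000027642) was at 12.2% of 394 reads in the GV oocyte and 77.9% (68.1 to 85.4) of 86 reads in the embryo. Csnk1g2, a casein kinase 1, had a 5′UTR site at 10.1% of 208 reads and 75.4% of 65 reads. At both sites the intervals of the GV oocyte and the embryo lay far apart.

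Rcor1, Apex2 and Hist1h1c had the same pattern at lower embryo levels. Rcor1, a corepressor that binds the histone demethylase LSD1, had a 5′UTR site at 10.3% of 78 reads and 58.5% of 53 reads. Apex2, a nuclease of base excision repair, had a CDS site at 18% of 122 reads and 61.5% of 65 reads. Hist1h1c, a linker histone, had a CDS site at 11% of 703 reads and 52.2% of 113 reads. Of these 5 genes, Hist1h1c had no site in the MII list and the other 4 had between 1 and 7.

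Only 4 of the 333 sites stood at 50% or more in the GV oocyte, and all 4 were fully unconverted in the embryo. Taf4, a subunit of the general transcription factor TFIID, had a CDS site in exon 1 (ENSMUSG00000039117) at 62.9% of 105 GV oocyte reads (53.3 to 71.5) and 100% (89.0 to 100) of 31 reads in the embryo. Rasa4, a GTPase-activating protein for Ras, had a CDS site in exon 9 at 90.2% (77.5 to 96.1) of 41 reads and 100% of 20 reads. Zfp316, a zinc finger protein, had a CDS site at 62.1% of 29 reads and 100% of 28 reads. Ksr2, a scaffold of the Ras kinase cascade, had a 3′UTR site at 55.3% of 47 reads and 100% of 20 reads.

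Their GV oocyte levels were well above the 10% limit, and all 4 genes had other sites in the MII list, with 8, 3, 5 and 1 in the order given. From the ratio of MII to GV oocyte coverage at the other sites of each gene, the estimated MII coverage was 98, 29.3, 27.1 and 32.9 reads. The last 3 estimates are close to the minimum of 20 reads, and that of Ksr2 rests on 1 ratio. For these 3 sites, coverage under the minimum, a level under the limit and the authors' removal of reads with many unconverted C cannot be told apart. The estimate for Taf4 was above the minimum and rests on 5 ratios. Why the Taf4 site is absent from the MII list was not tested. In all, 10 members (3.00%) were at 100% in the embryo, against 451 (7.34%) of the sites called at every stage, on 20 to 36 embryo reads each.

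For 265 of the 333 sites (79.6%, 74.9 to 83.6) the gene had another site in the MII list, which was the case for 248 of the 310 genes. The same share was 89.6% (88.8 to 90.4) for the sites called at every stage, counting sites other than the site itself, 81.1% for sites of the GV oocyte list alone and 87.9% for all GV oocyte sites. Where there was one, the gene held a median of 3 MII sites (quartiles 2 and 6), against 4 for sites called at every stage. The transcripts of most members were thus read in the MII oocyte at another position. In 168 of the genes a site was called at every stage, and in 20 genes no list held a site other than the members.

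The nearest MII-listed C of the gene lay within 50 nt on the genome for 46 members (13.8%) and within 500 nt for 127 (38.1%), against 20.8% and 48.7% of the sites called at every stage. Coverage at the MII-listed C within 50 nt had a median of 128.5 reads (quartiles 62.5 and 231), and was at least 50 reads for 39 of the 46 and at least 100 reads for 28. Between pairs of MII-listed sites within 50 nt the ratio of coverage had a median of 1 and lay between 0.699 and 1.45 for 90% of 3869 sites. Both sites of such a pair are listed and so have at least 20 reads, and the ratio says nothing of positions that are not in the list.

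**Figure D3:**
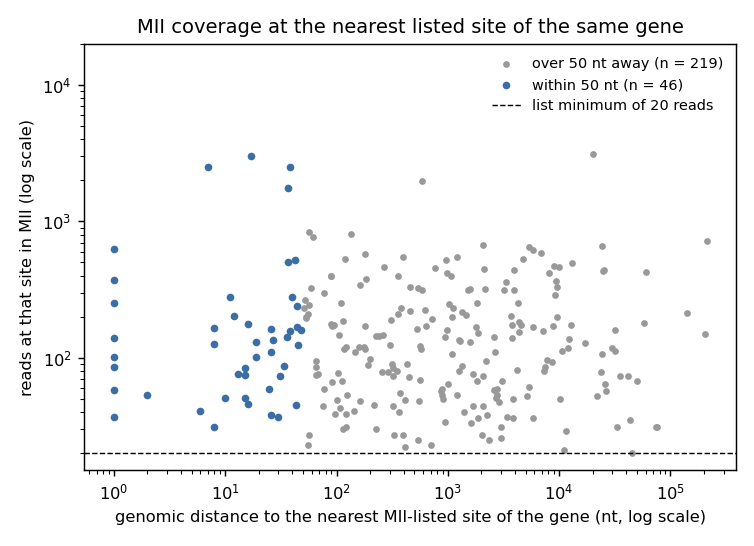
Reads in the MII oocyte at the nearest MII-listed site of the same gene (y axis, log scale) by its genomic distance from the member (x axis, nt, log scale), for the 265 members whose gene had one. The 46 neighbours within 50 nt (blue) had a median of 128.5 reads, and the dashed line marks the list minimum of 20 reads.

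The MII coverage at the members was also estimated as the GV oocyte coverage times the median ratio of MII to GV oocyte coverage at the other sites of the gene that both oocytes share. This was possible for 238 members and gave a median of 138 reads (quartiles 65 and 247), with at least 20 reads at 236 of them, at least 50 at 197 and at least 100 at 147. At the sites called at every stage, where the MII coverage is known, the actual coverage was 1.01 times the estimate at the median and between 0.702 and 1.42 times for 90% of 5045 sites. Those sites are all listed in the MII oocyte, so the spread of the estimate at sites that are not listed is unknown. Of the 147 members with an estimate of at least 100 reads, 117 were under 13% in the GV oocyte, 16 were at 15% or more and 2 were at 20% or more.

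These last 2 sites, named after their values were seen, were in Sdc1 and Rcl1. Sdc1, a cell surface heparan sulfate proteoglycan, had a CDS site in exon 5 (ENSMUSG00000020592, chromosome 12, position 8791648, plus strand) at 22.8% of 1655 reads in the GV oocyte and 46.2% of 533 reads in the embryo. Its 5′UTR site, which was called at every stage, was at 28.6% of 1457, 13.1% of 3120 and 26.8% of 478 reads in GV oocyte, MII oocyte and embryo. The estimated MII coverage of the CDS site from this 1 ratio was 3544 reads. Rcl1, a protein of ribosomal RNA processing, had a CDS site at 22.1% of 195 reads and 19.5% of 41 reads, with an estimate of 147 reads that also rested on 1 ratio. Both genes had a single MII site, so these estimates are less secure than those from several sites.

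For 15 members (4.50%) an MII-listed C lay within 10 nt, and for 8 of them it was the adjacent base. Over such short distances the ratio of MII coverage between 2 listed sites had a median of 1 and lay between 0.911 and 1.10 for 90% of 1512 sites. The 15 neighbours had 31 to 2494 MII reads, with at least 50 at 12 of them and at least 100 at 8. The members had GV oocyte levels of 10 to 17.5%, and the neighbour had the higher GV oocyte level in all 12 pairs in which it was listed there.

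The adjacent pairs show MII values 1 base away from a member. In Zfp296, a zinc finger protein of early embryos, the CDS member was at 10.6% of 867 reads in the GV oocyte and 22.5% of 120 reads in the embryo. The next C was at 29.0% of 867, 34.2% of 629 and 38% of 121 reads in the GV oocyte, MII oocyte and embryo. In Slc16a10, an aromatic amino acid transporter, the CDS member was at 11.3% of 301 and 18.9% of 95 reads. The next C was at 83.9% of 299, 79.0% of 371 and 100% of 98 reads in the 3 libraries. In both pairs the adjacent C was called at every stage at the higher level.

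Other adjacent pairs had levels closer to each other. In Rcor1 the member was at 10.3% of 78 and 58.5% of 53 reads, while the next C was at 14.7% of 75 reads in the GV oocyte, 33.7% of just over 100 in the MII oocyte and 35.4% of 65 in the embryo, so that the member was the higher of the pair in the embryo and the lower in the GV oocyte, a difference that was not tested. In Apba1, an adaptor that binds amyloid precursor protein, the member was at 13.3% of 270 and 29.7% of 118 reads, and the next C was in the MII list alone, at 15.5% of 252 reads. In Pdxdc1 the 5′UTR member was at 10% of 160 and 23.6% of 55 reads, and the C before it was at 13% of 161, 13.6% of 140 and 49.1% of 55 reads. In Apba1 the adjacent base was thus covered and called in the MII oocyte while the member was not called. These pairs were chosen for their distance after the values were seen, Zfp296, Slc16a10, Rcor1 and Apba1 apart, which other rules also name.

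**Figure D4:**
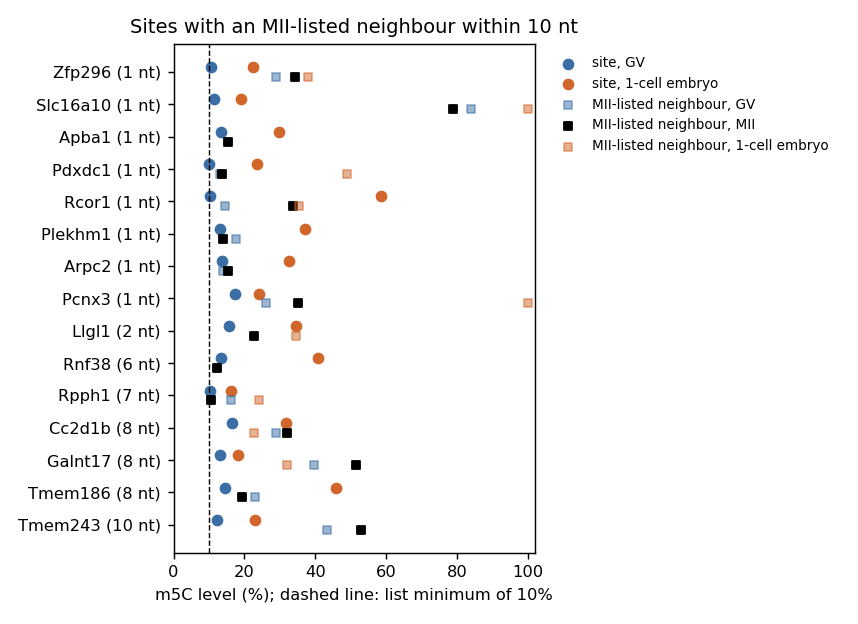
Levels (x axis, %) of the 15 members with an MII-listed C of the same gene within 10 nt (circles) and of that neighbour (squares), in the GV oocyte (blue), MII oocyte (black) and 1-cell embryo (orange). A neighbour missing from a list has no square for it, and the dashed line marks the 10% limit, near which the members lay in the GV oocyte (10 to 17.5%).

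Among the 28 members with an MII-listed C within 50 nt that had at least 100 reads, those with the highest GV oocyte levels were in Mansc1, Cc2d1b, Wwc1, Apba1, Galnt17, Apc, Gys1 and Mecr. Mansc1 was highest, at 18.2% of 77 reads in the GV oocyte and 15.4% of 52 reads in the embryo, and a C at 36 nt had 12.0% of 142 reads in the MII oocyte. Galnt17, a glycosyltransferase of mucin-type sugars, was at 13% of 138 and 18.3% of 71 reads, and a C at 8 nt had 51.6% of 126 reads in the MII oocyte. Mecr, an enzyme of mitochondrial fatty acid synthesis, was at 11.8% of 347 and 18.1% of 72 reads, and a C at 40 nt had 11.1% of 279 MII reads. None of these 28 members was above 18.2% in the GV oocyte.

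The remaining 68 members lay in 62 genes with no MII site at all. Their median level was 12.6% on 111.5 reads in the GV oocyte and 40.3% on 34.5 reads in the embryo, against 11.9% on 138 reads and 30.0% on 42 reads for the members in genes with an MII site. At least 100 GV oocyte reads covered 36 of the 68. Another embryo site was listed in 38 of the 62 genes and another GV oocyte site in 9. The deposited lists give no MII coverage for these genes, since they hold called sites alone.

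Genes of the ribosome, the ferritin shell and the tubulin skeleton were among the 62. Rps6, a small subunit protein, had a CDS site in exon 3 (chromosome 4, position 86856302, minus strand) at 12.1% of 1686 reads in the GV oocyte and 10.8% of 713 reads in the embryo. Rpl13, a large subunit protein, was at 10% of 1610 and 30.9% of 543 reads. Rps3 was at 12.9% of 854 and 10.5% of 105 reads, and Rpl29 at 11.5% of 715 and 20.9% of 320 reads. Rps6 and Rps3 stayed near the 10% limit in both libraries, while Rpl13 and Rpl29 were higher in the embryo. The other 2 ribosomal protein members were Rpl6, at 13.7% of 315 and 48.9% of 47 reads, and Rpl27, with a 5′UTR site at 47.5% of 40 and 75% of 24 reads.

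The tubulin genes Tuba1b and Tuba1a had CDS sites with similar GV oocyte levels. Tuba1b was at 12.6% of 1014 reads in the GV oocyte and 68.3% (53.0 to 80.4) of 41 reads in the embryo. Tuba1a was at 11.9% of 603 and 43.5% of 23 reads. The iron storage genes Fth1 and Ftl1 were at 13.8% of 421 and 12.9% of 124 reads, and at 12.6% of 358 and 14.7% of 129 reads. Tuba1a, Fth1, Ftl1, Rpl6 and Rpl27 were named after their values were seen. Ribosomal protein, ferritin, alpha-tubulin and histone genes have near-identical copies or pseudogenes, so the assignment of their reads is less certain.

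Of the 38 shared sites in ribosomal protein genes, 6 (15.8%, 7.44 to 30.4) were members, and none of the 6 genes had an MII site, although 50 ribosomal protein genes held 80 sites in the MII list. The share over all shared sites was 5.14%. In genes of kinesins, dyneins and tubulins 4 of 28 shared sites (14.3%, 5.70 to 31.5) were members, in solute carrier genes 10 of 114 (8.77%, 4.83 to 15.4) and in Zfp genes 7 of 93 (7.53%, 3.69 to 14.7). Ubiquitin ligase and deubiquitinase genes had 12 of 223 (5.38%, 3.10 to 9.17), and cell cycle and meiosis genes 4 of 80 (5.00%, 1.96 to 12.2). Lower shares were found for chromatin and transcription genes, with 5 of 134 (3.73%, 1.60 to 8.44), translation and mRNA decay genes, with 3 of 108 (2.78%, 0.949 to 7.85), and maternal-effect and oocyte genes, with 1 of 59 (1.69%, 0.30 to 9.0). All intervals but that of the ribosomal protein genes and that of the kinesins, dyneins and tubulins included 5.14%. This is no test of enrichment, since the lists were chosen with earlier results of these data known. The intervals count sites as independent and make no allowance for the number of lists. The kinesin, dynein and tubulin members were in Kif20b, Tuba1a, Tuba1b and Tubg2. Read assignment is less certain for the alpha-tubulin and ribosomal protein genes.

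Individual members of these lists had values like those of the whole set. The member among maternal-effect genes was in Trim28, a corepressor that keeps imprinted genes methylated in the early embryo, a Type II CDS site in exon 15 at 11.3% of 724 reads in the GV oocyte and 35.1% of 37 reads in the embryo. Brd2, which binds acetylated histones, had a 5′UTR site at 10.0% of 468 and 34.7% of 49 reads, and Sin3b, a scaffold of histone deacetylase complexes, a CDS site at 12.0% of 343 and 14% of 50 reads. Both genes had MII sites at other positions, with 2 in Brd2 and 5 in Sin3b.

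Cell cycle members included a subunit of the ubiquitin ligase that ends metaphase. Anapc1, this subunit, had a CDS site at 10.1% of 138 and 29.5% of 78 reads, and the kinesin Kif20b, which acts in cytokinesis, one at 10.5% of 133 and 26.9% of 67 reads. Eef2, the elongation factor that moves the ribosome along mRNA, had the deepest GV oocyte coverage of all members, with 10.6% (9.27 to 12.0) of 1952 reads against 26.4% (23.3 to 29.7) of 716 reads in the embryo. Its other sites included one at 30.2% of 1753, 27.5% of 1974 and 39.8% of 379 reads in the GV oocyte, MII oocyte and embryo. Eif3i, a subunit of the initiation factor eIF3, was at 10.7% of 262 and 52.2% of 46 reads and its gene had no MII site. The Eef2 transcript was thus read to a similar depth in both oocytes at a position 585 nt from the member.

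Solute carriers and enzymes of the ubiquitin system, whose lists held many shared sites, had members with the following values. Slc25a26, the mitochondrial carrier of S-adenosylmethionine, had a CDS site at 10.6% of 302 and 16.0% of 106 reads, in a gene with no MII site. Otud3, a deubiquitinase, had a CDS site at 10.6% of 265 and 35.1% of 134 reads, and a C at 53 nt had 83.3% of 198 MII reads. Fbxl19, an F-box protein, was at 11.1% of 352 and 17.5% of 166 reads. Tubg2, a gamma-tubulin, was at 10.6% of 696 and 19.0% of 116 reads, and Zfp653 at 11.1% of 280 and 17% of 100 reads.

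Of the 310 genes, 292 had 1 member, 13 had 2 and 5 had 3, namely Rpph1, Jund, Srebf2, Lama5 and Rhbdf2. Rpph1 is the RNA of ribonuclease P, which trims the 5′ ends of transfer RNA precursors. Its sites (ENSMUSG00000092837, chromosome 14, positions 50807607, 50807641 and 50807672, minus strand) were at 11.4% of 1876, 10.2% of 1635 and 10.0% of 1396 reads in the GV oocyte. In the embryo they were at 15.3% of 7193, 16.3% of 6572 and 10.7% of 4928 reads. The 2 other sites of Rpph1, at 7 and 17 nt from a member, were at 17.4% of 2044 and 16.2% of 1627 GV oocyte reads. They were at 10.2% of 2996 and 10.5% of 2494 MII oocyte reads and at 19.1% of 6667 and 24.0% of 7268 embryo reads. All 5 cytosines lay between 10 and 24.0% wherever they were listed, and the 2 that remained in the MII list had their lowest level there. The background of unconverted C estimated for this gene was 1.41%, 0.873% and 1.93% in GV oocyte, MII oocyte and embryo, so it was also lowest in the MII oocyte. The medians over the members were 0.303%, 0.414% and 0.473%. Whether the background bears on the levels of Rpph1 was not tested.

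Jund, an AP-1 transcription factor with a single exon, had 3 CDS members within its coding sequence. The first was at 11.9% of 185 reads in the GV oocyte and 100% (90.4 to 100) of 36 reads in the embryo, a difference of 88.1 points. The others were at 10.1% of 525 and 12.5% of 120 reads in the GV oocyte, and at 30% of 90 and 64.3% of 28 reads in the embryo. The Jund site that was called at every stage was at 16.4% of 250, 10.5% of 399 and 52.2% of 46 reads, and so was also lower in the MII oocyte than on either side.

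Srebf2, the transcription factor that drives genes of cholesterol synthesis, had 8 GV oocyte sites, 3 embryo sites and no MII site. Its 3 members were at 24.7% of 77, 18.2% of 66 and 16.3% of 49 reads in the GV oocyte and at 29.7% of 37, 36.1% of 36 and 44% of 25 reads in the embryo. The other 5 sites were listed in the GV oocyte alone, at 13.4 to 48.4% of 23 to 82 reads. The others of the 62 genes without an MII site had at most 3 GV oocyte sites each. Whether the transcript was read in the MII oocyte cannot be told from the lists.

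Lama5 and Rhbdf2 differed from Srebf2 in having many MII sites. Lama5, a chain of basement membrane laminin, had 34 MII sites, and its members were at 12.6% of 183, 11.4% of 114 and 14.4% of 118 reads in the GV oocyte and at 40.7% of 27, 55.3% of 47 and 11.9% of 42 reads in the embryo. Rhbdf2, an inactive rhomboid protein, had 6 MII sites, and its members were at 11% of 291, 13.9% of 273 and 11.3% of 284 reads in the GV oocyte and at 13.2% of 38, 17.4% of 86 and 13% of 108 reads in the embryo. In Rhbdf2 all 3 members stayed below 20% in both libraries. Members of 1 gene share their transcript and are not independent of each other.

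Other sites of the same genes were compared to see how the MII oocyte stood between the other libraries. The 396 sites that were called at every stage in 168 member genes had median levels of 23.1%, 28.4% and 44.6% in GV oocyte, MII oocyte and embryo, on 248, 211 and 59 reads. The 5749 such sites in other genes had medians of 21.5%, 28.1% and 45.5%. The MII level was above the GV oocyte level at 302 of the 396 sites (76.3%) and at 84.8% of those in other genes. By gene, the median of the differences was above 0 in 127 of the 168 genes. Sites called at every stage had to pass 10% in the MII oocyte, so a lower MII level could be seen only down to that limit.

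Sites called at every stage with a low GV oocyte level were the nearest comparison in level. Of these 1644 sites under 15% in the GV oocyte, 176 had a lower level in the MII oocyte, and the median MII level was 16.6%. Their median difference between embryo and GV oocyte was 16.3 points, against 17 points for the 252 members under 15%. The comparison was not matched for depth. These sites had medians of 319.5 GV oocyte and 77 embryo reads, against 134 and 41 for all 333 members. With at least 50 reads in both libraries and any level, the median difference was 8.59 points for members and 16.4 for sites called at every stage.

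The class of the sites, which the rule did not use, was close to that of the sites called at every stage. Type II sites made up 18 of the 332 members at a known base (5.42%, 3.46 to 8.41), against 5.46% of the sites called at every stage and 5.99% of those of the GV oocyte list alone. Of the 18, 17 read CUCCA. The member on an unplaced scaffold was not classed. Type II members had median levels of 12.0% in the GV oocyte and 29.7% in the embryo, and none lay in a 5′UTR, where 38 members lay in all.

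The 6 Type II members named next had the highest coverage in the embryo, the less covered library, with Fgd1 level with the last of them at 55 reads, while the Type II site of Trim28 had more GV oocyte reads. Zwint, a kinetochore protein, was at 11% of 502 reads in the GV oocyte and 29.8% of 168 reads in the embryo. Rpa2, a subunit of the single-strand DNA binding complex, had a 3′UTR site at 11.4% of 493 and 29.7% of 128 reads. Gtse1, which binds microtubules and p53, was at 13% of 270 and 21.4% of 70 reads. All 3 genes had 1 MII site. Ccdc71 was at 10.2% of 246 and 25.4% of 59 reads, Dcaf4 at 11.9% of 84 and 22.8% of 57 reads, and Rab11fip4, an effector of the Rab11 trafficking GTPase, at 12.4% of 194 and 14.5% of 55 reads. Of these 6, Ccdc71 alone was in a gene without an MII site.

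Type I members had a mean of 2.24 G (SD 0.859 over 314 sites) at positions +1 to +4 from the site, against 2.25 (SD 0.856) at the sites called at every stage. G stood at 40.1%, 71.3%, 60.8% and 51.6% of them at +1, +2, +3 and +4, against 37.2%, 68.4%, 65.1% and 53.8%. At +1, T stood at 10.5% (7.58 to 14.4) of the Type I members and 6.48% (5.87 to 7.14) of the sites called at every stage. It stood at 8.53% of the sites of the GV oocyte list alone. A at +1 was found at 36.0% of the members and 42.5% of the sites called at every stage. Whether these shares differ was not tested. The 4 members at 50% or more in the GV oocyte, whose sequences are shown above, had 4 G (Taf4) or 3 G (Zfp316, Ksr2 and Rasa4) at these positions. In the predicted fold of the site with 50 nt on each side, the site was paired in 59.7% (185 of 310) of the Type I members and in 60.5% of the sites called at every stage. The 5 bases after it were paired in 70.2% and 70.7%, and the 5 bases before it in 51.9% and 52.0%. The median folding energy was -31.6 and -30.9 kcal/mol.

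**Figure D5:**
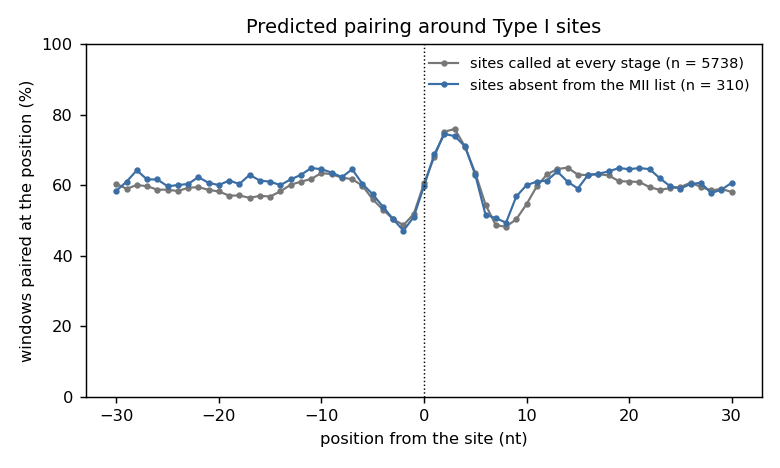
Share of windows, with 50 nt on each side of the site, in which each position was predicted to be paired (y axis, %) by its position from the site (x axis, nt), for 310 Type I members (blue) and 5738 Type I sites called at every stage (grey). Both lines rise after the site, to a mean of 70.2% and 70.7% over the 5 bases that follow it.

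In the transcript, 245 members (73.6%, 68.6 to 78.0) lay in the CDS, 38 (11.4%, 8.43 to 15.3) in the 5′UTR, 42 (12.6%, 9.47 to 16.6) in the 3′UTR and 8 in exons of non-coding transcripts. The sites called at every stage had 72.6%, 11% and 14.7% in the first 3 classes, and sites of the GV oocyte list alone had 61.2% in the CDS and 22.8% in the 3′UTR. The background of unconverted C of each gene was estimated from the deposited p-value of 1 listed site per gene and library. Its medians were also alike, at 0.303%, 0.414% and 0.473% for members in GV oocyte, MII oocyte and embryo. Sites called at every stage had 0.302%, 0.424% and 0.490%. Genes without an MII site have no MII value, and the MII median covers 262 members. These intervals and shares cover counting error only, since reads without molecular identifiers are not independent molecules.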

How the data were processed

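RNA bisulfite libraries of GV oocytes, MII oocytes and 1-cell embryos were analysed, with 1 library per stage. Per the submitters' processing notes, reads were trimmed with cutadapt 1.13 and Trimmomatic 0.36 and aligned with HISAT2 2.10 and Bowtie2 2.2.9 to GRCm38, while the reporting summary of the study gives other versions of cutadapt and HISAT2. The authors deposited coverage as a count of reads at each site, with no normalization, and the m5C level as a fraction of unconverted reads, given here in percent. The p-value deposited by the authors is a one-sided binomial test against the background of the gene. The lists do not give this background, and it was solved from the p-value, coverage and unconverted reads of 1 site per gene and library. The lowest coverage, level and number of unconverted reads in each list were 20 reads, 10% and 5 reads. No p-value exceeded 0.00098, 0.000889 and 0.00052 in the lists of GV oocyte, MII oocyte and embryo. The authors also removed reads with many unconverted C and genes that resist conversion, so absence from a list does not give a level.

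The members and gene lists were chosen with earlier results of these data known. Genes and transcript regions were taken from GENCODE M21 by Ensembl identifier (8345 of 8353 genes found), in the order CDS, 5′UTR, 3′UTR and other exon. The sequence context of a site came from its spliced transcript, and the printed sequences from the RefSeq GRCm38 genome. Sites were named by rule: the 6 with the highest smaller coverage of both libraries, the 6 with the largest rise at 50 or more reads, those at 50% or more in the GV oocyte, the 8 with the highest GV oocyte level near an MII site of 100 or more reads, genes with 3 members, the 6 deepest in genes with no MII site, the 6 deepest Type II sites, the 2 deepest of each gene list, and the 3 sites with the lowest MII level just outside. One item that these rules name is not reported here. Fisher's exact tests were made over all 6478 shared sites. They were also run on simulated reads that were independent of each other, which cannot show how the test behaves with copies of the same molecule. Windows with 50 nt on each side of a site were folded at 37 °C with ViennaRNA 2.7.2. Tests used scipy 1.17.1 and statsmodels 0.14.6 under Python 3.11.15, tables pandas 2.3.3 and numpy 2.4.6, sequences pysam 0.24.0 and plots matplotlib 3.10.9.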

Additional observations from a re-analysis of the deposited data

How the results depend on the processing

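No paired analysis was possible because each stage had 1 library, and leaving out a replicate was not possible for the same reason. With at least 50 reads in both the GV oocyte and the embryo, 129 sites remained members, 64 of them (49.6%, against 69.3% of all 3984 such shared sites) called higher in the embryo, and the gene had another MII site for 84.5%. With at least 100 reads there were 46 members and 25 called higher (54.3%, against 75.2% of 2127 shared sites), with a median estimated MII coverage of 369 reads, and 84.8% in the CDS, 2.17% in the 5′UTR and 6.52% in the 3′UTR. With a level of at least 20% in both libraries there were 33 members and 17 called higher (51.5%, against 67.6% of 3244 shared sites). Another MII site was then present for 69.7%, the median estimated MII coverage was 38.2 reads, and 57.6% lay in the CDS and 18.2% in the 5′UTR. Dividing the reads by 5 left 27 sites called higher. The construction of these alternatives, which leave fewer sites or fewer reads, lowers the counts, and the cause of the other differences was not tested. The Type II share lay between 4.35% and 6.06% over the alternatives. With a level of at least 20%, Type I members had a mean of 2.45 G and 78.1% pairing after the site, against 2.24 and 70.2% for all members, and whether these differ was not tested. Matching by site and gene together gave the same 333 sites, and 1 coverage ratio for all genes gave a median estimate of 116 reads.

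Depth limits what the members show. At 203 of the 333 sites the embryo had under 50 reads, so single levels there are wide. A called list holds no value for a site below its limits, and unmethylated, weakly methylated, uncovered and removed sites cannot be told apart in the MII oocyte.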

Other observations

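The members at 100% in the embryo beside those already described were in Slco5a1, Gpc1, Klf16, Isyna1 and Chd9, a group chosen after the values were seen. Isyna1, the enzyme that makes inositol from glucose phosphate, was at 10.3% of 184 reads in the GV oocyte and 100% of 28 reads in the embryo, and its gene had no MII site. Gpc1, a cell surface glypican, was at 12.4% of 105 reads and 100% of 30 reads, in a gene with 8 MII sites and an estimated MII coverage of 168 reads. Klf16, a transcription factor, was at 10.9% of 46 and 100% of 24 reads. Slco5a1 and Chd9 started from 33.3% of 54 and 41.7% of 24 reads in the GV oocyte. Levels of 100% in the embryo were thus found at sites with GV oocyte levels from near the limit to 90.2%.

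Has3, a hyaluronan synthase, had 2 members in its CDS, at 42.4% of 33 and 21.2% of 66 reads in the GV oocyte and at 65% of 20 and 94.1% of 34 reads in the embryo, in a gene with 9 MII sites.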
